A study of Mus musculus with 12 samples.

Results

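The genes described here encode the contents of the cytotoxic granule and the proteins that go with them: the granzymes Gzma, Gzmb, Gzmc, Gzmd, Gzme, Gzmf and Gzmk, the pore-forming protein perforin (Prf1), the granule proteoglycan serglycin (Srgn) and the granzyme B inhibitor Serpinb9. They were chosen by name, with earlier results of these data known. All 10 were found among the 11022 genes of the deposited expression table. The cells were cultured mouse CD8 killer cells, cytotoxic T lymphocytes (CTL), from LCMV-P14 mice, whose transgenic T cell receptor (TCR) recognises the gp33 peptide of a mouse virus, grown from lymph nodes or spleens of female mice aged 9 to 13 weeks and studied on day 7 of culture. Lymphocytes had been primed with peptide, interleukin 2 (IL-2) and interleukin 12 for 48 h and then kept in IL-2 at 20 ng/ml, and every group stayed in that IL-2 through the experiment. After a rest of 1 h, CTL were left unstimulated, were restimulated for 4 h with 100 ng/ml peptide (TCR), or were restimulated for 4 h together with 10 µM IC87114, an inhibitor of the p110δ form of phosphoinositide 3-kinase (TCR + PI3Kδi), or with 2 µM PD184252, an inhibitor of the kinase MEK (TCR + MEKi). DMSO was the vehicle. Each of the 4 groups had 3 biological replicates, BR1 to BR3, which gave 12 mRNA libraries from 3 mice, although the sources do not say that each mouse fed all 4 conditions. All cells carried the same transgenic TCR, and for these CTL the methods describe no cell sorting.

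A CTL kills by releasing granules onto its target. Perforin opens pores in the target membrane, and granzymes, which are serine proteases, enter through them and cleave proteins inside the target. Granzyme B cuts after aspartate and triggers caspases, granzyme A cuts after basic residues, and the granzymes of the C to G series are closely related proteases found in rodents. Serglycin is the proteoglycan core that binds perforin and granzymes inside the granule, and Serpinb9 is a serpin that blocks granzyme B that has leaked into the cytosol of the killer cell itself. The TCR reaches the nucleus partly through MEK and its substrate ERK and partly through PI3K. The inhibitor groups show how each mRNA differs when either kinase is blocked during 4 h of restimulation. No group had an inhibitor without peptide, and every group stayed in IL-2, so inhibitor effects on TCR-driven and other expression cannot be told apart. The authors also report reduced ERK activation in CTL lacking PI3K p110δ activity, so the routes may not be separate.

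Expression is given as FPKM, fragment counts scaled to exon length and library size, as the authors computed it. The steps between low FPKM values put the effective depth at about 7900000 to 13300000 fragments per library, so that 3 fragments in a gene of 1 kb of exon correspond to 0.226 to 0.382 FPKM. At that depth the least abundant member, Gzmk, rested on about 79 to 443 fragments per library and the most abundant, Gzmb, on about 126665 to 205026, and these are approximate because exon lengths came from another annotation than the authors'. The label of the cells fitted their markers. The CD8 T cell genes Cd3d, Cd3e, Cd3g, Cd247, Cd8a and Cd8b1 were all present, with a summed level of 1110 to 1230 FPKM in unstimulated, 1300 to 1410 in TCR, 1250 to 1360 in TCR + PI3Kδi and 1420 to 1450 in TCR + MEKi libraries. None of the 4 B cell genes and none of the 5 myeloid genes looked for was among the genes kept in the table. Of 3 natural killer cell genes only Klrb1c was kept, at 4.58 to 6.23 FPKM in unstimulated and 1.31 to 2.43 FPKM in restimulated libraries. Of 4 dendritic cell genes only Itgax was kept, at 0.29 to 0.75 FPKM, and of 5 mast cell genes only Kit, at 0.52 to 0.7 FPKM in unstimulated and 5.18 to 10.6 FPKM in restimulated libraries. Of 3 CD4 T cell genes, Cd4 and Zbtb7b were kept, with a summed level of 7.54 to 9.31 FPKM in unstimulated, 7.59 to 8.26 in TCR, 5.27 to 8.23 in TCR + PI3Kδi and 9.9 to 11.2 in TCR + MEKi libraries. Within that sum the 2 genes moved in opposite directions with TCR and with MEKi. Cd4 itself measured 0.44 to 0.99 FPKM in unstimulated, 2.54 to 2.87 in TCR, 1.96 to 3.65 in TCR + PI3Kδi and 0.28 to 0.66 in TCR + MEKi libraries, so that it was higher with TCR (adjusted p = 9.53e-05, limma) and lower with MEKi than with TCR (adjusted p = 2.31e-05), as Prf1, Srgn and Serpinb9 were. Zbtb7b measured 6.58 to 8.42, 5.05 to 5.61, 3.31 to 4.58 and 9.38 to 10.97 FPKM in the same order (adjusted p = 0.00386 for TCR against unstimulated and 6.73e-05 for MEKi against TCR, limma). The part of these single genes in the results below was not tested. The libraries are bulk cultures, in which fewer cells with a transcript and less of it per cell cannot be told apart.

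Of the 7 granzyme members, 5 lie in the granzyme cluster of chromosome 14. On GRCm38, the build of the files (mm10), GENCODE M21 places Gzmb, Gzmc, Gzmf, Gzmn, Gzmg, Gzmd and Gzme within 144.6 kb, from position 56117626 to 56262260, all on the minus strand. Gzma and Gzmk lie together within 132.1 kb of chromosome 13 (113093825 to 113225908), also on the minus strand. Prf1 is on chromosome 10 (61297833 to 61304680, plus strand), Srgn on the same chromosome (62493833 to 62527451, minus strand) and Serpinb9 on chromosome 13 (33003250 to 33017957, plus strand). All are protein coding.

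The sequences just upstream of the cluster genes are shown because the C, D, E, F and G genes resemble each other there. The Gzmb window used resembles theirs less. Each is the 120 bases before the annotated start in RefSeq (GRCm38.p6), written 5′ to 3′ on the gene's strand. The Gzmb window begins at position 56262335, whereas GENCODE M21 ends Gzmb at 56262260, so it lies further upstream by that annotation. For the other cluster genes shown, the starts in both annotations lie closer. Capitals mark matches to TGANNTCA, TGANTCA and TGTGGT on either strand. The first of these contains the cyclic AMP response element TGACGTCA, the second is the form bound by AP-1 factors, and the third is the core bound by Runx factors. TGANNTCA was added to the search after the sequences had been seen. Prf1 is shown as a gene outside the cluster and has none of these motifs in the stretch printed, its single TGTGGT match lying 130 bases before its start.
Gzmb (chr14:56262335-56262454): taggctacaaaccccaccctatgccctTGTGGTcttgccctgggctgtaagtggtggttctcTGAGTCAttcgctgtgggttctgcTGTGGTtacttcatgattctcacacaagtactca
Gzmc (chr14:56234658-56234777): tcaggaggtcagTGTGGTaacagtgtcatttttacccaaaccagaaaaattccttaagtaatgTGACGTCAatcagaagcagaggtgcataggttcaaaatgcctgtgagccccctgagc
Gzmd (chr14:56132594-56132713): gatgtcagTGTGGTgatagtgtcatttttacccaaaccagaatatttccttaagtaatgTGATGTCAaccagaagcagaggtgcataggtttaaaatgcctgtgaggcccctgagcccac
Gzme (chr14:56120626-56120745): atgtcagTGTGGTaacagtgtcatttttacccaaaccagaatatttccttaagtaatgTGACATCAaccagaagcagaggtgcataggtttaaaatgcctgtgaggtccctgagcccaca
Gzmf (chr14:56211408-56211527): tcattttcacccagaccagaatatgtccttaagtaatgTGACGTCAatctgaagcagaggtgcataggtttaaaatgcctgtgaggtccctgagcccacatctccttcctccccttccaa
Gzmg (chr14:56159580-56159699): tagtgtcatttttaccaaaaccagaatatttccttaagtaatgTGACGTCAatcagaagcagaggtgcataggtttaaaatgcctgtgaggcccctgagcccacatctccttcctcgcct
Prf1 (chr10:61297716-61297835): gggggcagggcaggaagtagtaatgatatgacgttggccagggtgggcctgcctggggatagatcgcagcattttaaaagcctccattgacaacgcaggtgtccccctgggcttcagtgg

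Over the 250 bases upstream, Gzmd and Gzme were identical at 94.8% of aligned positions, Gzmf and Gzmg at 82.2%, and Gzmc and Gzme at 80.9%. Gzmb matched the windows of these 5 genes at 44.1% to 47.5%, and the cluster gene Gzmn matched them at 44.8% to 48.9% and Gzmb at 49.3%. The alignments allowed gaps, and windows of unrelated genes were not aligned, so these lower values have no baseline. All windows end at RefSeq starts, and the identity of a Gzmb window placed by its GENCODE start was not tested. The coding sequences were less far apart: Gzmd and Gzme were 93.3% identical, and Gzmb was 76.2% identical to Gzmc and 65.3% to Gzmd. The palindrome TGACGTCA stood 57 bases before the start of Gzmc, 82 before Gzmf and 77 before Gzmg. Gzmd and Gzme each held it with a single change, C4T in Gzmd and G5A in Gzme, counted from 1 at the first base of the site in Gzmc. TGACGTCA was found in 1.55% of the 32851 upstream windows of the RefSeq set and TGANNTCA, which includes it, in 11.93%. Gzmb had no TGANNTCA match. It alone of the 12 granule genes searched (the 10 members, Gzmg and Gzmn) had TGANTCA, 58 bases before its RefSeq start. That motif was present in 6.75% of windows. TGTGGT was found in 8 of the 12 genes and in 14.05% of windows. The motif TTCNNNGAA of STAT factors was found in 0 of the 12 and in 7.02% of windows, and the T-box core GGTGTG in 2 of the 12 and in 16.28% of windows. The cluster genes are related copies, so their matches are not independent of each other, and a match is a run of letters and not a measured binding site.

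The near identity of the cluster genes bears on how far reads can be told apart. Of the 50-base stretches of their transcripts, 21.9% of those of Gzmd and 20.6% of those of Gzme also occurred in another gene, chiefly in each other, against 7.4% for Gzmf, 4.1% for Gzmc and 0 for Gzmb, Gzma, Gzmk, Prf1 and Srgn. For Serpinb9 the share was 0.4%, from its relative Serpinb9b. At 100 bases, the length of each of the paired reads, 2 stretches were shared between Gzmd and Gzmg and 0 in the other members, so a full-length read with no mismatch allowed could nearly always be placed. How reads with mismatches were divided between Gzmd, Gzme and Gzmg was not tested. Gzmf overlaps the opposite-strand gene Gm4022 over 151 bases of exon, and the sources do not say if reads were counted by strand.

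Restimulation through the TCR raised most granule mRNA. In a limma fit across all 11022 genes, 8 of the 10 members were higher in TCR than in unstimulated CTL at a Benjamini-Hochberg adjusted p under 0.05, 1 was lower (Gzmk) and 1 did not pass (Gzma). For comparison, 33.6% of all genes were called higher and 34.9% lower by the same rule. With a change of more than 2-fold also required, 7 members were called higher and 1 lower, against 8.87% and 11.1% of all genes. The median log2 difference was 1.49 over the members and -0.01 over all genes. Gzmb passed the first rule but rose by less than 2-fold.

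Inhibiting PI3K p110δ gave few calls among the members, at a share near that of all genes. Of the 10, 0 were higher than in TCR and 2 were lower at an adjusted p under 0.05 in limma (Gzmc and Prf1), where 12.7% of all genes were called higher and 12.8% lower. At an unadjusted p under 0.05 the counts were also 0 and 2. No member changed by more than 2-fold, a call that 0.499% of all genes received in the higher and 1.38% in the lower direction. The median log2 difference of the members was -0.05, and that of all genes 0.02.

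Inhibiting MEK lowered 4 of the 10 members relative to TCR at an adjusted p under 0.05, namely Prf1, Serpinb9, Srgn and Gzma, and raised 0. At an unadjusted p under 0.05, 4 were lower and 1 higher, the latter being Gzmf. Among all genes 18.9% were called higher and 18.2% lower. No member passed 2-fold, which 0.98% of all genes did in the higher and 2.51% in the lower direction. The median log2 difference was -0.19 over the members and 0.01 over all genes. Compared directly with each other, the inhibitor groups differed at 6 members: 5 were lower in TCR + MEKi than in TCR + PI3Kδi (Gzma, Gzme, Prf1, Srgn and Serpinb9) and 1 was higher (Gzmc), where 14.4% and 14.5% of all genes were called. Again no member passed 2-fold, against 1.71% of all genes lower and 1.39% higher. At an unadjusted p under 0.05 the members past 2-fold were also 0 in these 3 comparisons, and limma's treat, which tests against 2-fold, called 0. Both inhibitor groups were set against the same 3 TCR cultures, so that chance deviations of those cultures enter both comparisons.

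**Figure D1:**
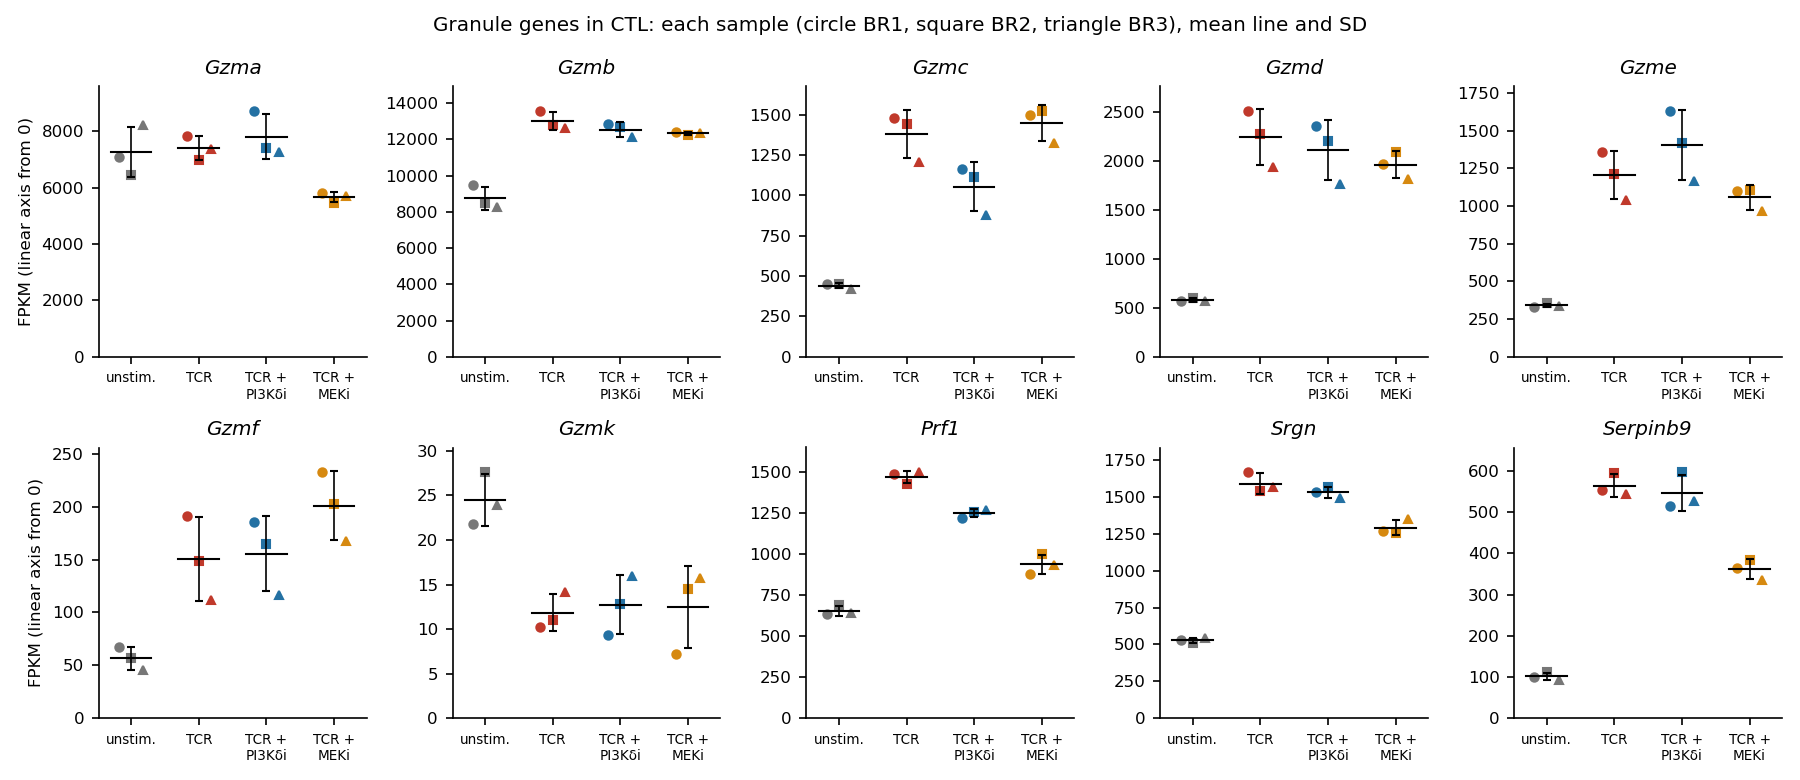
FPKM of the 10 members in every sample (linear axes from 0), by group, with the mean as a line and the SD as a bar. On this scale Gzmc, Gzmd, Gzme, Gzmf, Prf1, Srgn and Serpinb9 in all 9 restimulated cultures lie above all 3 unstimulated ones, Gzmk lies below, and Prf1 and Serpinb9 fall to a middle level in TCR + MEKi.

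These calls rest on the authors' TMM scaling, which holds the bulk of genes level between samples. Summed FPKM was 470420 to 495945 in unstimulated and 620715 to 666922 in TCR libraries. When each library was instead brought to a common FPKM sum, as for TPM, the median of all genes moved to -0.41 for TCR against unstimulated, 0.19 for TCR + PI3Kδi against TCR and 0.26 for TCR + MEKi against TCR. The share of higher genes among those called at over 2-fold then went from 44.4% to 22.1%, from 26.6% to 52.7% and from 28.1% to 61.5%. Quantile normalisation, which forces every library to the same distribution, left these medians at -0.05, 0.02 and 0.02. Member values below are on the deposited scale, and a loss of a call on the common-sum scale is given beside the value. Under quantile normalisation 6 member calls were lost and 1 changed sign, and not all of these losses are given below.

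Prf1, the pore-forming protein without which granzymes do not reach the target cytosol, had a graded response. Prf1 stood at 635, 692 and 639 FPKM in unstimulated CTL BR1 to BR3, and at 1486, 1429 and 1499 FPKM after TCR restimulation. With PI3Kδi it reached 1219.9, 1259 and 1268 FPKM. With MEKi it reached 879.7, 998 and 934 FPKM. The 4 groups did not overlap at any sample, in the order unstimulated, TCR + MEKi, TCR + PI3Kδi, TCR. TCR restimulation raised Prf1 2.25-fold in mean FPKM (log2 difference 1.17 ± 0.06 SE, adjusted p = 3.22e-10, limma, n = 3 against 3), a rise that stayed significant but under 2-fold on the common-sum scale (0.75) and under quantile normalisation (0.69). PI3Kδi lowered it to 0.849 of the TCR level (log2 difference -0.24 ± 0.06 SE, adjusted p = 0.0116, limma), a call that was lost on the common-sum scale (-0.05, adjusted p = 0.489). MEKi lowered it to 0.637 of the TCR level (log2 difference -0.65 ± 0.06 SE, adjusted p = 1.84e-06, limma), and this call held on the common-sum scale (-0.39, adjusted p = 7.27e-05). Prf1 in TCR + MEKi was also below TCR + PI3Kδi (log2 difference -0.42, adjusted p = 0.000146, limma).

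Gzmb, the granzyme that activates caspases, was the most abundant member throughout. It measured 9460.4, 8481 and 8279 FPKM in unstimulated CTL and 13582, 12789 and 12645 FPKM after TCR restimulation. With PI3Kδi it measured 12849.6, 12674 and 12099.6 FPKM, and with MEKi 12408, 12235 and 12338 FPKM. All restimulated samples lay above all unstimulated ones, and the MEKi samples lay just below all TCR samples, while the PI3Kδi and TCR samples overlapped. Restimulation raised Gzmb 1.49-fold (log2 difference 0.58 ± 0.09 SE, adjusted p = 6.75e-05, limma), a direction that flipped under quantile normalisation (-0.82, adjusted p = 3.79e-06) and became smaller on the common-sum scale (0.16, adjusted p = 0.0348). By FPKM, Gzmb ranked 1 or 2 of all genes in unstimulated CTL, 4 in all TCR samples, 3 with PI3Kδi and 2 with MEKi. The difference between TCR + PI3Kδi and TCR was -0.05 (95% interval -0.25 to 0.15) and that between TCR + MEKi and TCR was -0.08 (95% interval -0.28 to 0.12) on the log2 scale, and neither passed the test (adjusted p = 0.723 and 0.555, limma). On the common-sum scale both turned positive (0.13 and 0.19), and the second passed (adjusted p = 0.0255, limma), while under quantile normalisation both passed in that direction (0.32 and 0.51).

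Gzma, the granzyme that cuts after basic residues, was second to Gzmb and behaved differently. Its levels were 7105, 6462 and 8236 FPKM in unstimulated CTL and 7833, 6976 and 7382 FPKM in TCR samples, and these ranges overlap. With PI3Kδi it measured 8736, 7412 and 7281 FPKM, which overlaps TCR and differed from it only on the common-sum scale (0.26, adjusted p = 0.0116, limma) among the scalings tried. With MEKi it measured 5807, 5457 and 5721 FPKM, below every sample of the other groups. The difference between TCR and unstimulated CTL was 0.03 ± 0.11 SE (95% interval -0.2 to 0.26, adjusted p = 0.807, limma), and on the common-sum scale Gzma was lower in TCR (-0.38, adjusted p = 0.000164). MEKi lowered Gzma to 0.765 of the TCR level (log2 difference -0.38 ± 0.11 SE, adjusted p = 0.0113, limma), a call that was lost on the common-sum scale (-0.12, adjusted p = 0.159). It reached 0.725 of the PI3Kδi level with MEKi (log2 difference -0.46, adjusted p = 0.00468, limma), which held on the common-sum scale (-0.38) but not under quantile normalisation (-0.04, adjusted p = 0.704).

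The C to F granzymes rose together after restimulation, by more than Gzmb did. Gzmc measured 450.3, 454 and 421 FPKM in unstimulated CTL and 1483, 1445 and 1208 FPKM in TCR samples. Gzmd measured 569.98, 603 and 567 FPKM unstimulated and 2512, 2275 and 1941 FPKM with TCR. Gzme went from 331, 355 and 337 FPKM to 1360.0, 1214 and 1040.2 FPKM. In each of these genes all TCR samples lay above all unstimulated ones. Gzmf, the least abundant of the 4, measured 67.0, 57.2 and 45.7 FPKM unstimulated and 191, 148 and 112 FPKM with TCR, again without overlap. The rise in mean FPKM was 3.87-fold for Gzmd (log2 difference 1.94 ± 0.11 SE), 3.54-fold for Gzme (1.81 ± 0.11), 3.12-fold for Gzmc (1.64 ± 0.1) and 2.66-fold for Gzmf (1.39 ± 0.2). The adjusted p-values in limma were 5.54e-10, 1.9e-09, 2.19e-09 and 1.74e-05 in the same order. On the common-sum scale these differences were 1.53, 1.4, 1.22 and 0.98, so that Gzmf fell just short of 2-fold there. Gzmg, their neighbour in the cluster and not a member, measured 295, 241 and 226 FPKM unstimulated and 864, 639.6 and 532 FPKM with TCR, a rise of 2.67-fold (adjusted p = 7.08e-06, limma). The cluster's remaining gene, Gzmn, stayed at 0.47 to 1.8 FPKM in all libraries, or about 5 to 18 fragments each. Of the 3 granzymes outside the members, Gzmg, Gzmm and Gzmn, only Gzmg passed with TCR, and 0 passed with either inhibitor against TCR.

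Among these genes, Gzmc was called lower with PI3Kδi than with TCR, and Gzmc and Gzme differed between the inhibitors. With PI3Kδi, Gzmc measured 1164, 1115 and 882 FPKM, below all 3 TCR samples. With MEKi it measured 1496, 1526 and 1323 FPKM, a range that overlaps TCR and differed from it only under the other scalings (0.34 in both, adjusted p = 0.00575 and 0.0135, limma). Gzmc with PI3Kδi reached 0.764 of the TCR level (log2 difference -0.39 ± 0.1 SE, adjusted p = 0.0117, limma), and it was 37.5% higher with MEKi than with PI3Kδi (0.47 ± 0.1 SE, adjusted p = 0.00332). The first call was lost without TCR BR1 (-0.34), without PI3Kδi BR3 (-0.27) and on the common-sum scale (-0.21, adjusted p = 0.0778), and the second held under both other scalings (0.55 and 0.53). Gzme measured 1633, 1419 and 1169 FPKM with PI3Kδi and 1102, 1108 and 964 FPKM with MEKi, against a TCR mean of 1205 FPKM. The MEKi and PI3Kδi groups of Gzme did not overlap (log2 difference -0.4 ± 0.11 SE, adjusted p = 0.0145, limma), although the call was lost without MEKi BR3 (-0.34) or PI3Kδi BR1 (-0.29). Neither inhibitor group of Gzme differed from TCR at the threshold (0.22, adjusted p = 0.169 for PI3Kδi and -0.18, adjusted p = 0.222 for MEKi), but the PI3Kδi difference passed on the common-sum scale (0.4, adjusted p = 0.00404), under quantile normalisation (0.39) and without PI3Kδi BR3 (0.35).

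Gzmd, the most abundant of the series, showed no called difference between restimulated groups. It measured 2352, 2206 and 1765 FPKM with PI3Kδi and 1971, 2089 and 1814 FPKM with MEKi, ranges that overlap each other and TCR. Its 95% intervals were -0.32 to 0.14 for PI3Kδi against TCR and -0.42 to 0.04 for MEKi against TCR (log2). Gzmf measured 186, 165 and 116 FPKM with PI3Kδi and 233, 203 and 167 FPKM with MEKi. Its groups overlap, yet each MEKi culture lay above the TCR culture of the same number. Gzmf was 33.5% higher with MEKi than with TCR (log2 difference 0.44 ± 0.2 SE, adjusted p = 0.0976, limma) and 29% higher than with PI3Kδi (0.38 ± 0.2 SE, adjusted p = 0.164). With the replicate number as a block the SE fell to 0.06 in both and the differences passed (adjusted p = 9.24e-05 and 0.000319, limma). The difference from TCR also passed without TCR BR1 (0.63), on the common-sum scale (0.7) and under quantile normalisation (0.56).

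**Figure D2:**
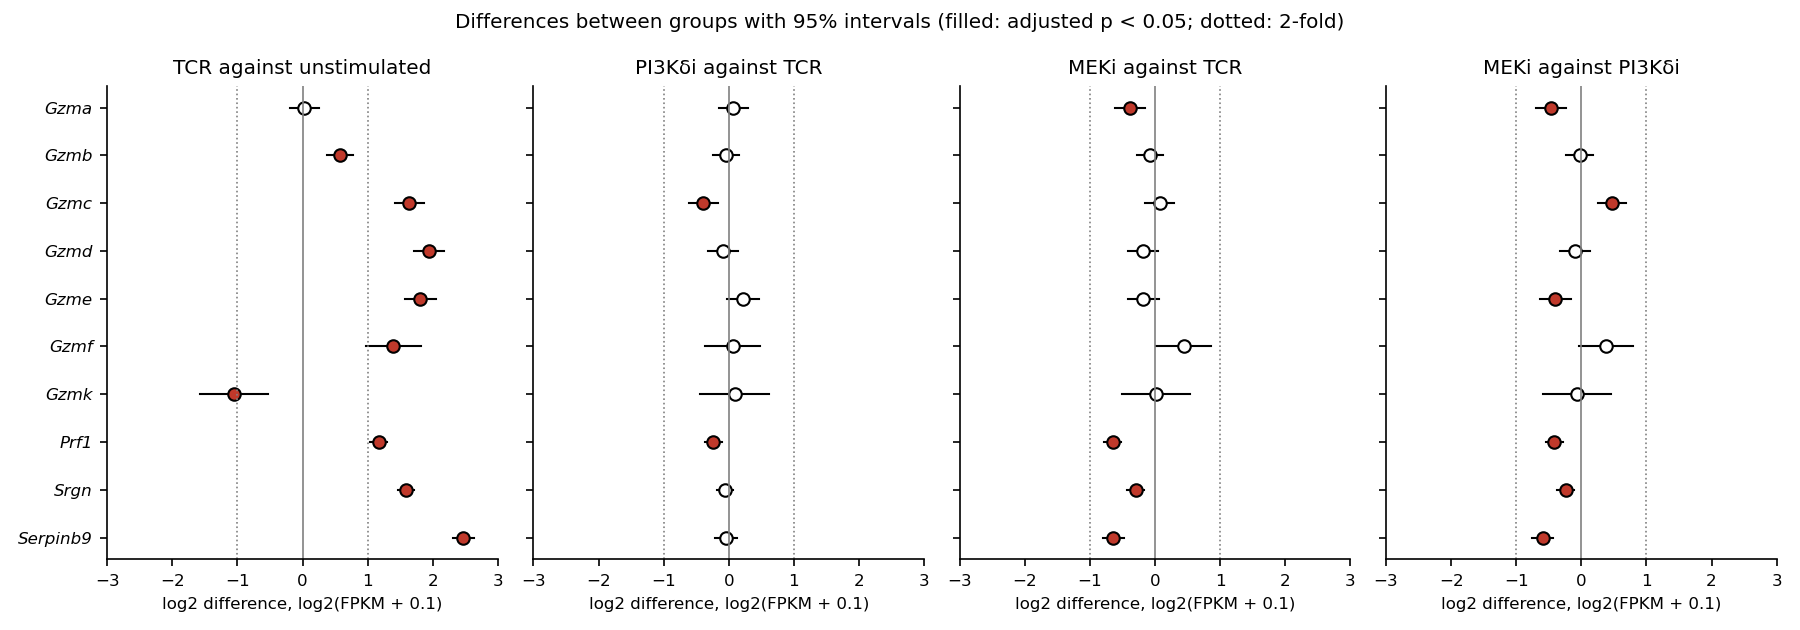
Log2 difference between groups on log2(FPKM + 0.1) for each member in the 4 comparisons, with 95% intervals from limma. Filled points passed an adjusted p of 0.05 and dotted lines mark 2-fold. The TCR panel spreads from -1.05 (Gzmk) to 2.47 (Serpinb9), with Gzmb positive there but negative under quantile normalisation (-0.82), and every point of the other panels lies inside the dotted lines.

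Gzmk, a granzyme typical of memory-like CD8 T cells, was the only member to fall. It measured 21.8, 27.6 and 24.0 FPKM in unstimulated CTL and 10.2, 11.1 and 14.2 FPKM in TCR samples, with no overlap. With PI3Kδi it measured 9.34, 12.9 and 15.9 FPKM and with MEKi 7.21, 14.5 and 15.8 FPKM. The change to TCR was 0.483-fold (log2 difference -1.05 ± 0.24 SE, adjusted p = 0.00146, limma), and it lay under 2-fold without TCR BR1 (-0.95) or unstimulated BR2 (-0.96), with the adjusted p still under 0.05. Neither inhibitor group passed the test against TCR (0.09, 95% interval -0.44 to 0.61, and 0.01, 95% interval -0.51 to 0.54), and these intervals are the widest among the members. Gzmk ranked between 2785 and 3391 by FPKM in unstimulated samples and between 4711 and 5529 in TCR samples.

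Serpinb9 had the largest rise of the 10 members after restimulation. It measured 100.3, 112 and 93.6 FPKM in unstimulated CTL and 553, 596 and 543 FPKM with TCR. With PI3Kδi it measured 515, 597 and 526 FPKM, overlapping TCR. With MEKi it measured 365, 384 and 337 FPKM, below all TCR and PI3Kδi samples and above all unstimulated ones. The rise with TCR was 5.53-fold (log2 difference 2.47 ± 0.08 SE, adjusted p = 7.3e-13, limma). MEKi lowered it to 0.642 of the TCR level (log2 difference -0.64 ± 0.08 SE, adjusted p = 1.76e-05, limma), and the call held on the common-sum scale (-0.38, adjusted p = 0.00176) and under quantile normalisation (-0.4, adjusted p = 0.00409). For PI3Kδi the difference was -0.05 (95% interval -0.21 to 0.12, adjusted p = 0.685, limma).

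Srgn, the proteoglycan core on which granule proteins are packed, measured 531, 509.9 and 545 FPKM unstimulated and 1666, 1537 and 1565 FPKM with TCR. With PI3Kδi it measured 1534, 1566 and 1489 FPKM, and with MEKi 1269.9, 1254 and 1349 FPKM. The TCR and PI3Kδi samples overlapped, and the MEKi samples lay below both. Srgn rose 3.01-fold with TCR (log2 difference 1.59 ± 0.06 SE, adjusted p = 5.61e-12, limma) and stood at 0.812 of the TCR level with MEKi (log2 difference -0.3 ± 0.06 SE, adjusted p = 0.0012). The latter call was lost on the common-sum scale (-0.04, adjusted p = 0.52) and under quantile normalisation (-0.02, adjusted p = 0.843).

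Ratios of length-scaled levels within a sample are the same on the deposited and the common-sum scale, which multiply a whole library by 1 factor, but not under quantile normalisation. Gzmb exceeded Prf1 by a ratio of 13.4 ± 1.4 (SD, n = 3) in unstimulated CTL, 8.84 ± 0.36 with TCR, 10 ± 0.5 with PI3Kδi and 13.2 ± 0.92 with MEKi. The ratio of Gzmb to its inhibitor Serpinb9 went from 86.2 ± 9.4 to 23.1 ± 1.6 with TCR, was 23.1 ± 1.9 with PI3Kδi and was 34.2 ± 2.4 with MEKi. Gzma to Gzmb was 0.836 ± 0.14 in unstimulated CTL, 0.569 ± 0.02 with TCR, 0.622 ± 0.051 with PI3Kδi and 0.459 ± 0.012 with MEKi. Gzmb to Gzmd was 15.1 ± 1.3 in unstimulated CTL and 5.85 ± 0.59 with TCR, and 6.02 ± 0.74 and 6.32 ± 0.47 with PI3Kδi and MEKi. With 3 cultures against 3, an exact permutation test of a single ratio cannot go below 0.10, so these ratios are given as a description. In the first 3 of them every MEKi sample lay outside the range of the TCR samples.

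**Figure D3:**
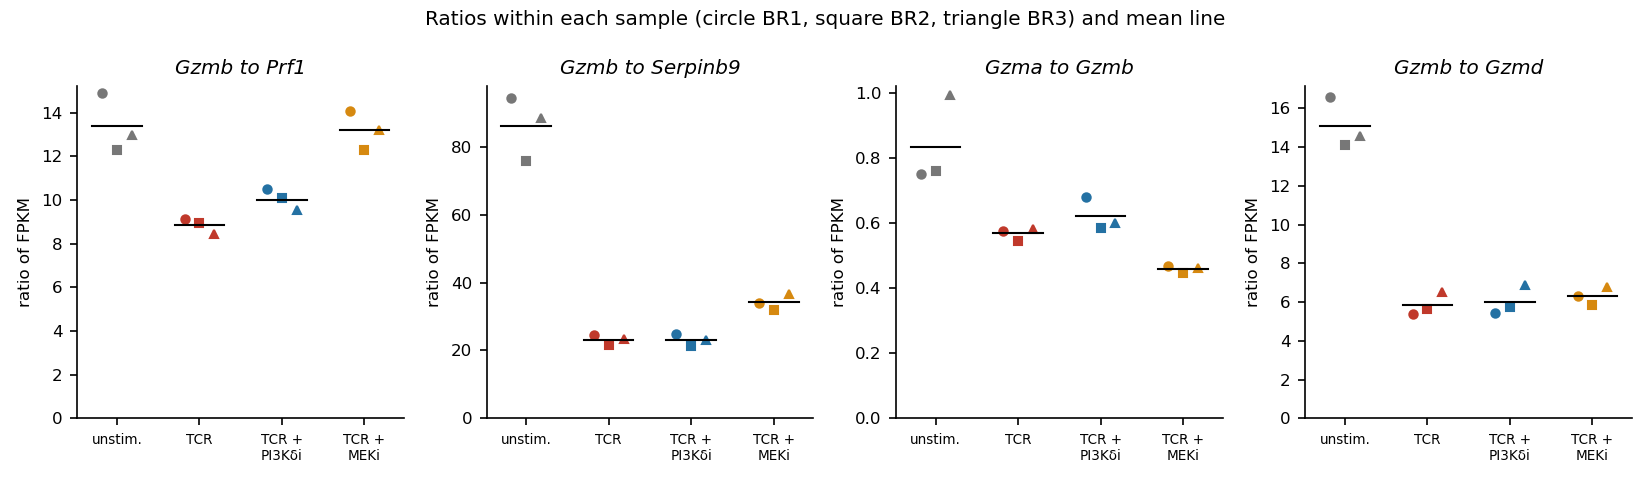
Ratios of FPKM between granule genes within each sample (linear axes from 0), with the mean as a line. Gzmb to Prf1 is 13.4 in unstimulated CTL, 8.84 with TCR and 13.2 with MEKi, while Gzmb to Gzmd stays between 5.85 and 6.32 in the restimulated groups.

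As a share of all FPKM, which is close to a share of transcripts, the 10 members made up 3.9 ± 0.15% (SD, n = 3) in unstimulated CTL, 4.54 ± 0.091% with TCR, 5.04 ± 0.17% with PI3Kδi and 4.74 ± 0.11% with MEKi. With the 100 most abundant other genes left out of the sum, the shares were 5.68%, 7.78%, 8.15% and 7.36%, so that MEKi then lay below TCR instead of above it. Gzmb alone accounted for 1.82 ± 0.16%, 2.03 ± 0.028%, 2.23 ± 0.052% and 2.31 ± 0.05% in that order, and Gzma for 1.51 ± 0.14%, 1.16 ± 0.028%, 1.38 ± 0.093% and 1.06 ± 0.048%. Gzmb and Gzma therefore held most of the granule mRNA in every group. Prf1 made up 0.137 ± 0.0094% unstimulated and 0.23 ± 0.0075% with TCR.

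Other genes of the granule were read from lists drawn up by role, in which genes past 2-fold in some comparison are named. Cst7, Nkg7, Eomes and Runx3, like Gzmn above, fall outside that rule and were added after their values had been seen. At an adjusted p under 0.05 in limma, 33.6% of all genes were higher and 34.9% lower with TCR than in unstimulated CTL. Against TCR, these shares were 12.7% and 12.8% with PI3Kδi, and 18.9% and 18.2% with MEKi. The lists are short, so their counts are a description to be read beside these shares. Among relatives of Serpinb9 and the cystatin Cst7, 4 of 6 listed genes were in the table, and 3 rose with TCR. Serpinb6b, a serpin of the same family, measured 38.8, 41.4 and 34.6 FPKM in unstimulated CTL, 900.2, 903 and 793 FPKM with TCR, 783, 814 and 729.6 FPKM with PI3Kδi and 283, 321 and 259.98 FPKM with MEKi. It rose 22.6-fold with TCR (adjusted p = 2.76e-15, limma) and MEKi brought it to 0.333 of the TCR level (log2 difference -1.59 ± 0.08 SE, adjusted p = 5.5e-09), whereas with PI3Kδi it stood at 0.896 (adjusted p = 0.191, or 0.0325 with the replicate block). Serpinb9b rose 12.8-fold, from 3.87 to 49.5 FPKM in the means (adjusted p = 2.82e-12, limma), and stood at 45.5 FPKM with PI3Kδi (adjusted p = 0.508) and 43.1 FPKM with MEKi (adjusted p = 0.242, or 0.0289 with the replicate block). Cst7, which encodes cystatin F, an inhibitor of the protease that activates granzymes, rose from 147 to 193.5 FPKM (adjusted p = 2.83e-05, limma) and was lower with both inhibitors, at 144 FPKM with PI3Kδi (adjusted p = 0.000135) and 163 FPKM with MEKi (adjusted p = 0.00394). On the common-sum scale its TCR difference was -0.02 and its MEKi difference 0.01, so that only the PI3Kδi call held there (-0.24, adjusted p = 0.00291, limma). The whole list had 0 higher and 1 lower gene with PI3Kδi against TCR, and 0 higher and 2 lower with MEKi. With the replicate block these counts were 0 and 2, and 0 and 3.

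Among the 6 granule membrane and cargo genes, 5 rose and 1 fell with TCR. Cd63, a tetraspanin of lysosome-like membranes, had a wide range. It measured 0.43, 0.37 and 0.36 FPKM in unstimulated CTL and 19.3, 16.1 and 16.6 FPKM with TCR. With PI3Kδi it measured 9.87, 6.16 and 7.71 FPKM, and with MEKi 0.98, 1.11 and 0.74 FPKM. No 2 groups overlapped, and the unstimulated values rest on about 14 to 18 fragments per library. The rise was 44.8-fold in mean FPKM (adjusted p = 1.73e-12, limma), the level with PI3Kδi was 0.457 of that with TCR (adjusted p = 0.000258), under 2-fold without PI3Kδi BR2 (-0.98) and on the common-sum scale (-0.96), and the level with MEKi was 0.0545 of it (adjusted p = 1.43e-09). Nkg7, a granule membrane protein, rose 1.93-fold (1085 to 2098 FPKM, adjusted p = 2.62e-08) and measured 1728 FPKM with PI3Kδi (adjusted p = 0.0132) and 1633 FPKM with MEKi (adjusted p = 0.00172), and both inhibitor calls were lost on the common-sum scale (-0.09 for each). The PI3Kδi call was also lost without TCR BR1 (-0.19) or PI3Kδi BR2 (-0.25). In this list 3 genes were lower and 0 higher with PI3Kδi, and 3 lower and 1 higher with MEKi. The shares of all genes were 12.8% lower and 12.7% higher with PI3Kδi, and 18.2% lower and 18.9% higher with MEKi.

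Of the 4 genes that sort proteases to granules through mannose 6-phosphate, 3 rose and 1 fell with TCR. M6pr, the small receptor for that tag, rose 2.94-fold (123.9 to 364 FPKM, adjusted p = 7.94e-13, limma). It was 0.804 of the TCR level with PI3Kδi (293 FPKM, adjusted p = 0.000311) and 1.01 with MEKi (367 FPKM, adjusted p = 0.883, but 0.27 and adjusted p = 0.00069 on the common-sum scale). The fall with PI3Kδi was lost on the common-sum scale (-0.13, adjusted p = 0.0664). In this list 1 gene was higher and 1 lower with PI3Kδi than with TCR, and 1 higher and 0 lower with MEKi. Of 7 cathepsins 6 were in the table, with 3 higher and 3 lower after TCR. Ctss passed 2-fold downwards (10.9 to 5.44 FPKM, adjusted p = 0.000317) and Ctsl upwards (0.337 to 0.95 FPKM, adjusted p = 0.00087). Ctss lay under 2-fold without TCR BR2 (-0.78), unstimulated BR1 (-0.93) or unstimulated BR3 (-0.96) and under quantile normalisation (-0.97), and Ctsl on the common-sum scale (0.88). With PI3Kδi 2 cathepsins were lower than with TCR (3 with the replicate block) and 0 higher, and with MEKi 1 was lower and 1 higher. The higher one was Ctsl, and its call was lost without TCR BR2 (0.7) or BR3 (0.71), or MEKi BR1 (0.59) or BR3 (0.7). Among all genes, 33.6% rose and 34.9% fell with TCR. With PI3Kδi 12.8% were lower and 12.7% higher, and with MEKi 18.2% and 18.9%.

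Of 29 listed genes that move and fuse granules 27 were in the table, and 9 rose, 11 fell and 7 did not pass with TCR, shares close to the 33.6% and 34.9% of all genes. The members of the synaptotagmin-like family, which tether granules carrying Rab27a, split. Sytl3 rose 3.7-fold (42.4 to 156.9 FPKM, adjusted p = 4.88e-12, limma), while Sytl2 fell to 0.265 (34.3 to 9.09 FPKM, adjusted p = 2.61e-11) and Sytl1 to 0.353 (9.29 to 3.28 FPKM, adjusted p = 1.05e-06). PI3Kδi raised Sytl2 to 16.5 FPKM, between its TCR and unstimulated levels (log2 difference 0.85 ± 0.08 SE against TCR, adjusted p = 5.57e-06), whereas MEKi left it at 8.96 FPKM (adjusted p = 0.864). Sytl3 was lower with both inhibitors, at 115 FPKM with PI3Kδi and 84.1 FPKM with MEKi (adjusted p = 0.000305 and 2.48e-07). Stx11, the syntaxin of granule fusion, rose 3.59-fold (adjusted p = 1.89e-12), and the actin regulators Coro1a and Was fell to 0.491 and 0.469 (adjusted p = 5.87e-10 and 2.89e-10). Coro1a lay under 2-fold without TCR BR2 (-0.98). Of the 27 genes, 2 were higher and 3 lower with PI3Kδi than with TCR (4 lower with the replicate block, which added Stx11), and 3 were higher and 5 lower with MEKi. A higher and a lower call with PI3Kδi (adjusted p = 0.0479 and 0.0437, limma) were weak. Each was lost without TCR BR3, PI3Kδi BR2 or PI3Kδi BR3, among other libraries. Without the block, the counts of this list were near or under the shares of all genes. Those shares were 12.7% higher and 12.8% lower with PI3Kδi, and 18.9% and 18.2% with MEKi.

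Of the 6 transcription factors known to control cytolytic genes, 5 rose with TCR and Runx3 did not pass (29.1 to 34 FPKM, adjusted p = 0.0874, limma). Tbx21, which encodes T-bet, measured 14.7, 12.3 and 13.8 FPKM in unstimulated CTL, 58.6, 45.5 and 54.9 FPKM with TCR, 30.95, 23.8 and 31.8 FPKM with PI3Kδi and 24.6, 23.8 and 24.1 FPKM with MEKi. It rose 3.89-fold and was lower with each inhibitor (log2 difference -0.88, adjusted p = 5.9e-05 for PI3Kδi, and -1.12, adjusted p = 2.49e-06 for MEKi), the latter under 2-fold on the common-sum scale (-0.86). Eomes, its relative, rose from 73.2 to 108.9 FPKM, stood at 113 FPKM with PI3Kδi (adjusted p = 0.551) and 75.4 FPKM with MEKi (adjusted p = 5.11e-06). Stat5a and Stat5b, which carry the IL-2 signal, rose 10.6-fold and 2.66-fold and were lowered more by PI3Kδi (to 0.503 and 0.684 of TCR, adjusted p = 3.4e-08 and 1.34e-05) than by MEKi (to 0.748, adjusted p = 3.54e-05, and 1.09, adjusted p = 0.0982). The direct comparison of MEKi with PI3Kδi passed for both (0.57 and 0.67, adjusted p = 2.12e-06 and 8.05e-07). Prdm1, which encodes Blimp-1, rose 3.36-fold and was higher with PI3Kδi than with TCR (18.6 to 22.9 FPKM, adjusted p = 0.0286), a call that was lost without BR1 or BR3 of TCR (0.29 and 0.26) or BR1 or BR2 of PI3Kδi (0.3 and 0.26). Of the 6 factors, 1 was higher and 3 lower with PI3Kδi than with TCR, and 0 higher and 3 lower with MEKi, where the replicate block added Runx3 and Prdm1 as higher (adjusted p = 0.0414 and 0.0478, limma). Without the block, the all-gene shares were 12.7% higher and 12.8% lower with PI3Kδi, and 18.9% and 18.2% with MEKi.

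**Figure D4:**
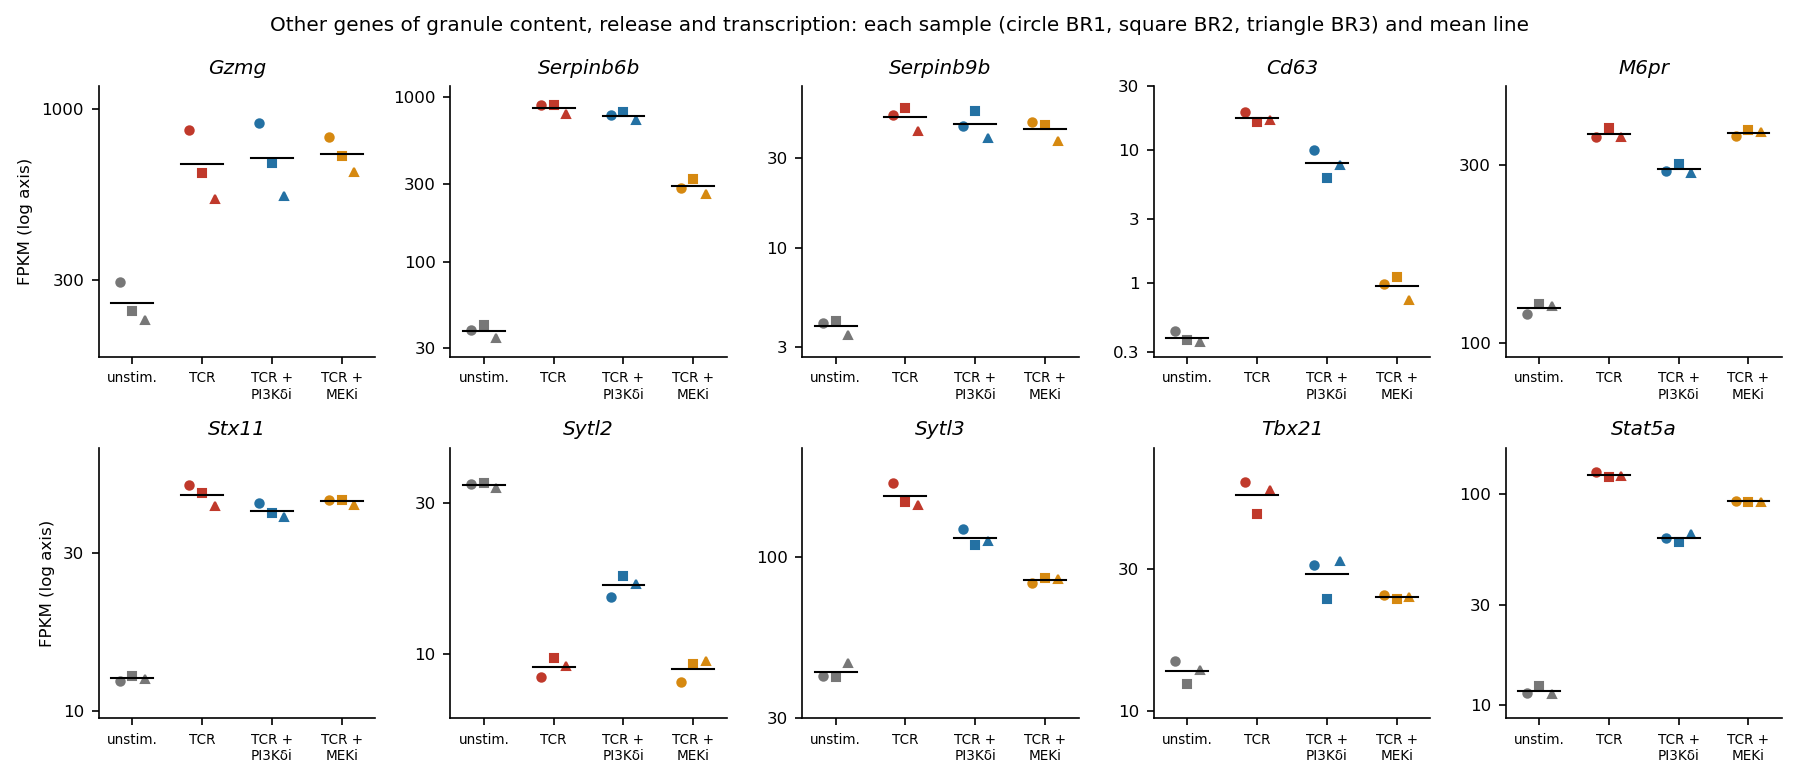
FPKM of 10 genes of granule content, sorting, release and transcription in every sample (log axes, which differ between panels), with the mean as a line. Serpinb6b and Cd63 fall with MEKi to 288 and 0.943 FPKM in the means, Sytl2 is low with TCR and with MEKi, and Stat5a is lower with PI3Kδi than with MEKi.

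The genes whose pattern over the 12 samples was most like a member's, among 10223 non-members with a group mean of at least 1 FPKM, were Cdh23 (Pearson r of log2 values 0.99), Tnfrsf4 (0.987) and Pdcd1 (0.986) for Gzmb. For Gzmc they were Mthfd2 (0.99), Traf2 (0.988) and Gm11974 (0.985), and for Prf1 they were Ece1 (0.997), Csrnp1 (0.994) and Mapkapk3 (0.993). The levels of Ece1 were 5.43, 56.8, 36.4 and 16.5 FPKM in unstimulated, TCR, TCR + PI3Kδi and TCR + MEKi means, the same order as Prf1. In that order of groups, Cdh23 measured 0.18, 1.03, 0.977 and 0.78 FPKM and Pdcd1 18.2, 210, 191 and 205 FPKM. Tnfrsf4 measured 4.11, 148, 76.9 and 79.4 FPKM, whereas neither inhibitor difference of Gzmb passed on the deposited scale. Each rose by more than the 1.49-fold of Gzmb, so a high r did not mean changes of equal size. Among the members themselves, Srgn and Serpinb9 were closest (0.988), followed by Gzmd and Gzme (0.987), and Gzma was far from all others (-0.301 to 0.231). The 12 samples fall into 4 groups, so these coefficients mostly describe group means, and they are a description without a test.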

How the data were processed

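Messenger RNA of the 12 cultures was sequenced by Illumina HiSeq from TruSeq stranded libraries as paired reads of 100 bases. The authors aligned reads with STAR 2.4.2a to mm10, counted them per RefSeq gene with Subread 1.5.0, dropped low genes with filterByExpr, applied TMM factors and deposited FPKM values made with edgeR's RPKM function from summed exon lengths. Only these FPKM values, for 11022 genes, were analysed here.

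Differences were fitted with limma 3.58.1 in R 4.3.3 on log2(FPKM + 0.1) over all 12 samples and all genes, with a variance trend. Fold changes on this scale understate those of low genes. Adjusted p-values are Benjamini-Hochberg values, and a call needed 0.05 (and, where stated, more than 2-fold). Every member is named. Of the other lists, genes past 2-fold are named, at most 6 per list. The members and lists were chosen with earlier results of these data known. No test adjusts over a list alone.

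The fit was repeated with a pseudocount of 1 or 0.01, without genes whose mean was under 1 FPKM, and with a common FPKM sum, quantile normalisation, a replicate block, only the compared groups, no trend or limma's treat, and each library was left out in turn. Replicate numbers were checked for pairing over 9899 genes: deviations of same-numbered cultures correlated at 0.239 to 0.451 between TCR + PI3Kδi and TCR, at 0.122 to 0.182 between TCR + MEKi and TCR, at 0.137 to 0.149 between the inhibitor groups, and at 0.004 to 0.153 between TCR and unstimulated. Values come from the fit without a block unless stated. In the inhibitor comparisons, where every pair exceeded 0.1, the value with the block is given where it changed a call.

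Depth was estimated from 109 to 137 low values per library. Only 52.5% to 67.9% of these lay within 0.15 of a whole read, so read counts were not recovered and no count model was run. Positions and transcripts came from GENCODE M21 (GRCm38) and upstream sequences from RefSeq (GRCm38.p6), where all 10 members were found.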

Additional observations from a re-analysis of the deposited data

How the results depend on the processing

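Of 21 member differences past an adjusted p of 0.05, all 21 kept their direction and call with either other pseudocount, the filter, only the compared groups, no trend and the replicate block. On the common-sum scale 17 kept both and 4 lost the call, and under quantile normalisation 14 kept both, 6 lost the call and 1 changed sign. Limma's treat, which tests for more than 2-fold and so is stricter by construction, left 5 members past p, and 5 called, for TCR against unstimulated, and 0 in each of the other comparisons. With the replicate block, the Gzmf differences of MEKi from TCR (0.44) and from PI3Kδi (0.38) passed, and no other member's call changed.

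Signs turned under these scalings, given as log2 differences on the common-sum scale and then under quantile normalisation, and the cause was not tested. Against unstimulated, TCR gave Gzma -0.38 and -0.77, and Gzmb -0.82 in the latter. PI3Kδi against TCR gave Gzmb 0.13 and 0.32, Gzmd 0.09 and 0.1, Srgn 0.13 and 0.12, Serpinb9 0.13 and 0.14, and Gzma 0 under the latter. MEKi against TCR gave Gzmb 0.19 and 0.51, Gzmd 0.07 and 0.14, Gzme 0.08 and 0.05, and Gzmk 0 under the latter. MEKi against PI3Kδi gave Gzmb 0.06 and 0.19, Gzmd 0.04 under the latter and Gzmk 0.01 under the former. With the 100 most abundant other genes left out of the sum, the members' share was 5.68% in unstimulated, 7.78% in TCR, 8.15% in TCR + PI3Kδi and 7.36% in TCR + MEKi libraries.

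Leaving out 1 library at a time, members called for TCR numbered 7 to 8, and members past p 1 to 2 for PI3Kδi (1 without TCR BR1), 4 to 5 for MEKi and 5 to 6 for MEKi against PI3Kδi. Small differences changed sign: Gzma ranged from -0.05 to 0.12 for TCR, Gzma from -0.01 to 0.12, Gzmd from -0.19 to 0.03, Gzmf from -0.14 to 0.25 and Gzmk from -0.09 to 0.29 for PI3Kδi, Gzmc from -0.02 to 0.14 and Gzmk from -0.19 to 0.37 for MEKi, and Gzmk from -0.28 to 0.28 for MEKi against PI3Kδi. None of these was past the threshold on the deposited scale. Gzmk rested on the fewest fragments, 79 to 443 per library, and its SE of 0.24 was 0.15 with the replicate block.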

Other observations

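Several granzymes of the chromosome 14 cluster ordered the replicates alike in every group, a pattern chosen after the values had been seen. Gzmc, Gzmd, Gzmf and their neighbour Gzmg were lowest in BR3 in all 4 groups, as were 116 of 9899 genes (1.17%). Gzmf and Gzmg were in addition highest in BR1 in all 4 groups, which held for 11 genes (0.111%). Gzmf in TCR samples, for example, measured 191 FPKM in BR1 and 112 FPKM in BR3, and with MEKi 233 and 167 FPKM. Some other members kept other orders. Gzmb was highest in BR1 in all 4 groups, Serpinb9 was highest in BR2 in all 4, and Gzmk was lowest in BR1 in all 4. The cluster genes Gzmb and Gzme were lowest in BR3 in only 3 of the 4 groups. For these orders the share of all genes was not counted. Any order could have been picked, so the shares above understate how often some order holds.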
